A study of Mus musculus with 19 samples.

Results

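Zic1, Zic2, Zic4 and Zic5 were followed in RNA from the striatum of 19 mice. They are 4 of 49592 genes with a line in the count files and 4 of 22901 genes that the deposited tables name, and were found by their gene symbols in those tables and by the matching gene identifiers in the counts. All 4 passed the filter on low counts. The mice were males aged 4 months of the D2RCre_floxCas9-EGFP strain, in which Cre follows the dopamine D2 receptor gene and Cas9 with EGFP is switched on by Cre, and the controls carried the same alleles. An adeno-associated virus (AAV5) was injected into the medial prefrontal cortex (mPFC), with guide RNAs against the D2 receptor gene and mCherry in the PFC_D2R-KO mice and with syn-mCherry alone in the controls. From 3 weeks after surgery the mice were given saline for 5 days, and on day 9 a challenge with saline or with amphetamine at 3 mg/kg. Locomotion was recorded for 30 min, and tissue was taken 90 min after the challenge, a time that is stated for amphetamine only. There were 5 saline control, 5 amphetamine control, 5 saline PFC_D2R-KO and 4 amphetamine PFC_D2R-KO mice.

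Zic genes encode zinc-finger transcription factors related to the Gli factors that act at the end of hedgehog signalling. They pattern the dorsal neural tube and the midline of the forebrain, and in the developing septum, the medial neighbour of the striatum, they mark progenitors and young neurons. Some cells of the septal Zic4 lineage become cholinergic interneurons of the striatum. Meninges and cells along the ventricles are further known sites of Zic expression, so that a Zic transcript in striatal tissue does not by itself name a cell.

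The members lie in the genome as neighbouring pairs. In the deposited coordinates (GRCm39), Zic1 (ENSMUSG00000032368.15) spans chr9:91240111-91247863 and Zic4 (ENSMUSG00000036972.15) spans chr9:91244466-91271401, so that 3398 bases belong to both gene spans. Zic5 (ENSMUSG00000041703.8) spans chr14:122694207-122703089 and Zic2 (ENSMUSG00000061524.9) spans chr14:122712847-122717264, with 9758 bases between them. Within each pair the genes stand on opposite strands in the GENCODE M21 annotation of GRCm38. In those models the exons of Zic1 and Zic4 share 60 bases, which is 1.05% of the Zic1 exon bases and 0.581% of the Zic4 exon bases, and the exons of Zic2 and Zic5 share 0. The sources used here do not say whether strand was used in counting, and reads from the shared exon stretch could not be assigned with certainty.

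The starts taken for Zic1 and Zic4, 1 for each gene, are 3204 bases apart in GRCm38.p6. GENCODE M21 has 3 transcripts of Zic1 and 12 of Zic4, and other starts were not examined. The deposited gene spans overlap by 3398 bases, whereas these starts stand apart. The Zic4 window thus need not lie before the first base of the deposited span, nor before the start most used in this tissue. The 250 bases before each start are printed because both genes varied together across mice (Pearson r = 0.971) while these windows differ in their letters. Capitals mark the motif GGGCGG, searched on both strands (CCGCCC on the other), and both sequences come from RefSeq with build GRCm38.p6, Zic1 from chr9:91365769-91366018 on the minus strand and Zic4 from chr9:91368722-91368971 on the plus strand, 5′ to 3′.
Zic1: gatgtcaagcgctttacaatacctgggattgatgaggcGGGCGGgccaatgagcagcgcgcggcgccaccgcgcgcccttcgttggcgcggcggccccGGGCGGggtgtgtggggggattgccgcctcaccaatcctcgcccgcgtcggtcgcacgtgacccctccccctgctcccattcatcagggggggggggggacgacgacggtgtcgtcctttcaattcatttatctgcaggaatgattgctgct
Zic4: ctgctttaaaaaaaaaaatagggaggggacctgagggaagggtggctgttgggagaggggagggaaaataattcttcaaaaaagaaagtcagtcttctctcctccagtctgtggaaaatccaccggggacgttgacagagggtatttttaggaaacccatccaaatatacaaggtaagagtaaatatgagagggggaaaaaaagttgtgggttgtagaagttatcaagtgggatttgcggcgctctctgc
The Zic1 window held 27 CpG dinucleotides at 66% GC, with 2 matches of GGGCGG, 2 of CCAAT, which reads ATTGG on the other strand, and 1 of CACGTG, which reads the same on both. The Zic4 window held 4 CpG at 44.4% GC and 0 matches of these motifs or of TATAAA, which reads TTTATA on the other strand. Among 32851 windows of the same length the median was 6 CpG and 52.4% GC, and 91.4% of windows had fewer CpG than Zic1, against 37.8% for Zic4. GGGCGG was found in 32.7% of all windows, CCAAT in 33.8%, TATAAA in 12.4% and CACGTG in 6.02%. The Zic5 window, the third of 3 members matched in the RefSeq table, held 11 CpG at 62.4% GC, and 64.4% of windows had fewer. A match is a description of letters, and no binding was measured.

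Library totals ran from 57003408 to 85536346 counts, with 27591 to 29281 genes counted at least once. The lowest count of a member in any library was 3105 for Zic1, 1059 for Zic2, 324 for Zic4 and 290 for Zic5, for which counting alone gives a standard deviation of 1.79%, 3.07%, 5.56% and 5.87%. The labels name separate mice, and striatal projection neuron markers such as Ppp1r1b and Drd1 were present in every library (14 genes, with a summed level of 1980 to 6998 CPM, counts scaled to a common library size by TMM). The D2 receptor gene Drd2 ran from 34.14 to 200 CPM over the 19 libraries, and since it was aimed at in another region its striatal level checks no label. On principal components of these data 5 libraries lay far out: amphetamine PFC_D2R-KO 2 and 3, saline PFC_D2R-KO 3, saline control 5 and amphetamine control 3. This set of 5 was known from earlier results.

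Per unit of gene length, Zic1 was the most abundant member. The authors' FPKM values (fragments divided by gene length and library size) over all 19 libraries were 21.8 ± 6.21 (SD) for Zic1, 12.1 ± 3.35 for Zic2, 3.99 ± 1.21 for Zic4 and 2.17 ± 0.615 for Zic5. All values below, unless named FPKM, are CPM, which compare 1 gene between libraries.

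Zic1, which is needed for cerebellar and dorsal midline development, was counted at 173.9, 103.9, 144.0, 125.2 and 146.2 CPM in the saline controls and at 118.7, 130.8, 121.7, 199.1 and 111.5 in the saline PFC_D2R-KO mice. Under amphetamine it was counted at 115.1, 100.7, 47.47, 107.6 and 85.50 CPM in controls and at 118.7, 176.4, 98.90 and 100.7 in PFC_D2R-KO mice. The amphetamine controls had the lowest group mean, 91.3 ± 26.8 CPM (SD, n = 5), and the other groups had means of 139 ± 26.1 (saline control, n = 5), 136 ± 35.8 (saline PFC_D2R-KO, n = 5) and 124 ± 36.3 (amphetamine PFC_D2R-KO, n = 4). All groups overlapped.

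Zic4, the overlapping partner of Zic1, was counted at 21.91, 13.00, 18.91, 16.58 and 14.56 CPM in the saline controls and at 15.97, 16.79, 16.53, 25.23 and 14.57 in the saline PFC_D2R-KO mice. Under amphetamine it stood at 14.49, 12.33, 4.953, 12.42 and 11.07 CPM in controls and at 16.64, 23.97, 13.32 and 11.85 in PFC_D2R-KO mice. Its group means were 16.99 ± 3.53, 11.05 ± 3.62, 17.8 ± 4.23 and 16.5 ± 5.40 CPM for saline control, amphetamine control, saline PFC_D2R-KO and amphetamine PFC_D2R-KO. The amphetamine controls were again lowest by their mean, and the groups overlapped.

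Zic2, which specifies the ipsilateral projection of retinal axons and is needed for forebrain midline formation, was counted at 38.28, 24.63, 32.65, 29.41 and 38.18 CPM in the saline controls and at 30.75, 27.35, 28.11, 44.62 and 25.04 in the saline PFC_D2R-KO mice. Under amphetamine the controls stood at 23.88, 22.06, 16.19, 21.95 and 19.77 CPM and the PFC_D2R-KO mice at 31.34, 44.41, 38.77 and 25.23. Every amphetamine control was below every mouse of the other 3 groups. The group means were 32.6 ± 5.86, 20.8 ± 2.95, 31.2 ± 7.79 and 34.9 ± 8.40 CPM in the order used for Zic4.

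Zic5, the neighbour of Zic2, was counted at 15.09, 9.537, 10.90, 9.615 and 10.00 CPM in the saline controls and at 10.06, 11.19, 9.218, 16.72 and 8.057 in the saline PFC_D2R-KO mice. Under amphetamine it stood at 8.335, 8.708, 4.433, 9.397 and 8.110 CPM in controls and at 10.31, 14.91, 13.27 and 8.342 in PFC_D2R-KO mice. The amphetamine controls lay just under the saline controls without overlap, 9.397 against 9.537 at the border, and overlapped both PFC_D2R-KO groups. The group means were 11.03 ± 2.33, 7.80 ± 1.94, 11.05 ± 3.37 and 11.7 ± 2.94 CPM in the same order.

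In the order of group means the amphetamine controls were at the bottom for each of the 4 genes. Neighbours in that order were closer than the larger of their SDs, except the step down to the amphetamine controls for Zic2 (10.41 CPM against an SD of 7.79) and for Zic5 (3.233 against 2.33). By single libraries, saline PFC_D2R-KO 4 was the highest of all 19 for every member and amphetamine control 3 was the lowest for every member. The next highest library was amphetamine PFC_D2R-KO 2 for Zic1, Zic2 and Zic4, and saline control 1 for Zic5.

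**Figure D1:**
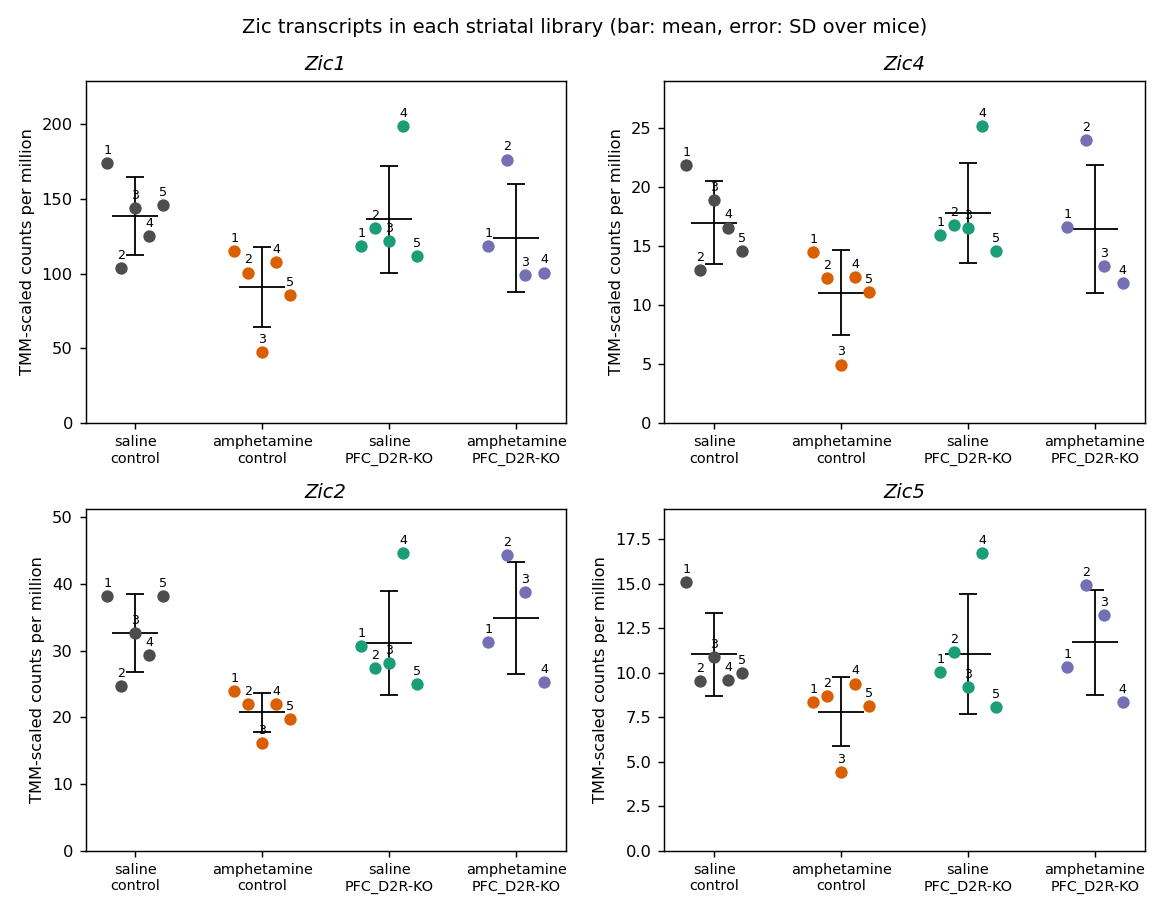
TMM-scaled CPM of Zic1, Zic4, Zic2 and Zic5 (vertical axes from 0) in each of the 19 libraries, by group, with points numbered by mouse and bars for the mean and SD. Amphetamine control 3 is the lowest and saline PFC_D2R-KO 4 the highest point in all 4 panels, and for Zic2 the amphetamine controls (16.19 to 23.88) lie below all other mice.

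The comparison of amphetamine with saline in control mice asks how striatal RNA differs after the acute dose. With edgeR's quasi-likelihood test over 21513 genes, 0 of the 4 members passed an adjusted p of 0.05, where 0.00465% of all genes did (1 gene). The log2 fold changes were -0.60 ± 0.221 (SE) for Zic1, -0.62 ± 0.241 for Zic4, -0.65 ± 0.169 for Zic2 and -0.50 ± 0.214 for Zic5, which are ratios of 0.658, 0.65, 0.636 and 0.707. Their adjusted p-values in edgeR were 0.289, 0.315, 0.173 and 0.367. At an unadjusted p under 0.05 all 4 were lower, where 6.95% of all genes were. DESeq2 on the same counts called 1 of the 4, Zic2 (-0.65, adjusted p = 0.0369), where it called 0.957% of genes, and limma voom called 0.

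The authors' deposited table for the same mice called Zic2 lower (log2 fold change -0.65, adjusted p = 0.0006265), and gave Zic1 -0.60 (adjusted p = 0.06186), Zic4 -0.62 (0.09862) and Zic5 -0.50 (0.1176). That table called 4.21% of its 18863 genes, 1.99% as lower. The fold changes of both sources were the same to 2 decimals for 4 of 4 members, and the call of Zic2 differed. For 2 of the 4 members, Zic2 and Zic5, the amphetamine and saline controls did not overlap, both lower with amphetamine, where 1.68% of all genes did not overlap in that direction. Without amphetamine control 3 the log2 fold changes were -0.45, -0.44, -0.58 and -0.36 for Zic1, Zic4, Zic2 and Zic5, and without all 5 distant libraries they were -0.43, -0.49, -0.52 and -0.39.

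In PFC_D2R-KO mice the same comparison gave log2 fold changes of -0.14 ± 0.234 for Zic1, -0.12 ± 0.253 for Zic4, 0.16 ± 0.177 for Zic2 and 0.08 ± 0.225 for Zic5, with edgeR adjusted p-values of 0.828, 0.874, 0.72 and 0.901. No member was called by edgeR or DESeq2 or in the authors' deposited table, where 0.00465%, 0.481% and 0.665% of genes were. At an unadjusted p under 0.05 0 of 4 passed in edgeR, against 12.1% of all genes in either direction. The name of the authors' table for this comparison notes that a sample VA7 was left out, and that sample was not analysed here.

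PFC_D2R-KO against control under saline gave log2 fold changes of -0.02 ± 0.220 (Zic1), 0.07 ± 0.238 (Zic4), -0.07 ± 0.167 (Zic2) and 0.0037 ± 0.212 (Zic5). The edgeR adjusted p-values ran from 0.919 to 0.997. No member was called by edgeR or DESeq2 or in the authors' deposited table, where 0%, 0% and 0.00439% of genes were, and 0 of 4 had an unadjusted p under 0.05 in edgeR, against 7.94% of all genes.

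PFC_D2R-KO against control under amphetamine has no deposited table. Here the log2 fold changes were 0.75 ± 0.177 for Zic2, a ratio of 1.68, 0.59 ± 0.225 for Zic5, 0.57 ± 0.253 for Zic4 and 0.44 ± 0.233 for Zic1. The edgeR adjusted p-values were 0.22, 0.281, 0.358 and 0.451, so 0 of 4 were called, where 0% of all genes were. At an unadjusted p under 0.05 there were 3 of 4 in edgeR, all but Zic1 and all higher, where 7.44% of all genes were. DESeq2 called Zic2 alone (0.75, adjusted p = 0.0276), where it called 0.49% of genes. The Zic2 values of the groups did not overlap, 25.23 to 44.41 CPM against 16.19 to 23.88, and 3.08% of all genes had groups apart in that direction.

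These values rest in part on single libraries. Without amphetamine PFC_D2R-KO 2 the difference under amphetamine was 0.22 for Zic1, 0.34 for Zic4 and 0.61 for Zic2, and without amphetamine control 3 it was 0.28 for Zic1. Without the 5 distant libraries, which leaves 2 of the 4 amphetamine PFC_D2R-KO mice, it was 0.10 for Zic1, 0.18 for Zic4, 0.37 for Zic2 and 0.11 for Zic5.

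The difference between the amphetamine responses of both genotypes, as an interaction term in edgeR, was 0.82 ± 0.244 for Zic2, 0.58 ± 0.310 for Zic5, 0.51 ± 0.348 for Zic4 and 0.46 ± 0.320 for Zic1. Its adjusted p-values were 0.519, 0.557, 0.632 and 0.633, and 0 of 4 members were called, where 0% of all genes were. Zic2 alone of the 4 had an unadjusted p under 0.05 in edgeR, where 9.25% of all genes did, and DESeq2 called no member, where it called 0.0847% of genes. Without the 5 distant libraries the interaction was 0.06 for Zic1, 0.33 for Zic2, 0.13 for Zic4 and 0.08 for Zic5. Without amphetamine PFC_D2R-KO 2 alone it was 0.24 for Zic1 and 0.27 for Zic4, and without amphetamine control 3 alone 0.31 and 0.33. The contrasts share groups of mice (the amphetamine controls enter 3 of them), so the values stand side by side and are not independent of each other.

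**Figure D2:**
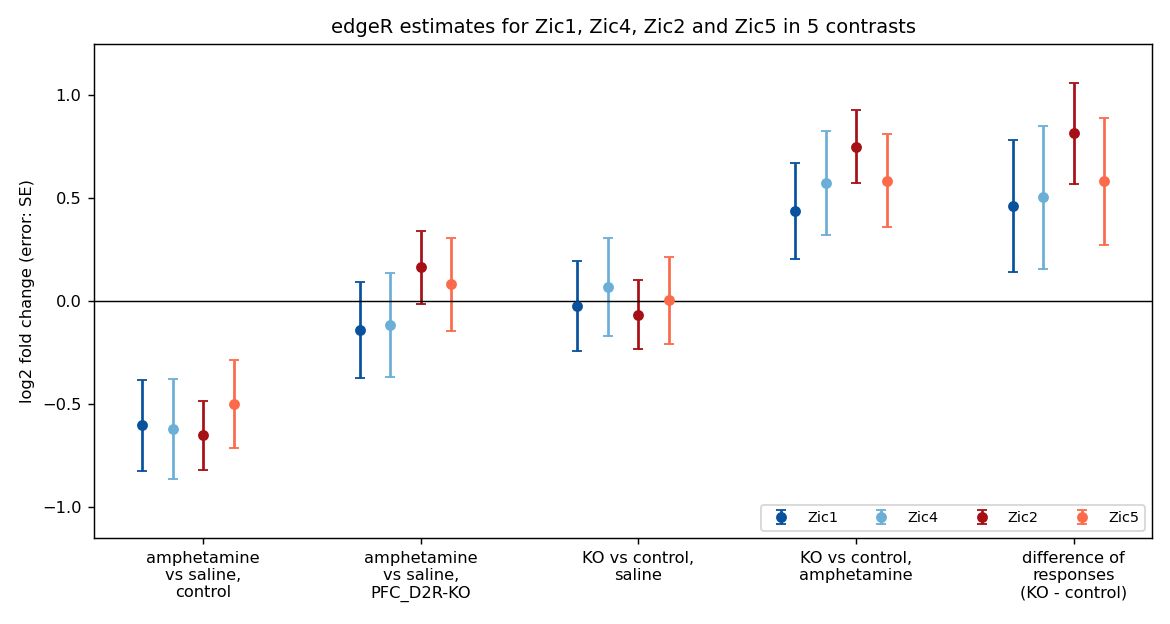
Log2 fold changes (vertical axis, points) with their standard errors (bars) from edgeR for the 4 genes in 5 contrasts. In control mice amphetamine against saline runs from -0.65 to -0.50, under saline the genotypes differ by 0.07 or less in size, and the largest value is the Zic2 interaction at 0.82.

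The members varied together from mouse to mouse. Over the 19 libraries the log2 CPM of Zic1 and Zic4, the overlapping pair on chromosome 9, had a Pearson r of 0.971 and a Spearman rho of 0.916 (permutation p = 1e-05 for both, the smallest these permutations can give, adjusted over 6 pairs 1e-05 and 3e-05). Zic2 and Zic5, the pair on chromosome 14, had r = 0.896 and rho = 0.875 (permutation p = 1e-05 for both, adjusted 1e-05 and 3e-05). Pairs across chromosomes had r between 0.831 (Zic2 with Zic4) and 0.900 (Zic4 with Zic5), and rho between 0.721 (Zic1 with Zic5) and 0.795. All 6 passed an adjusted permutation p of 0.05.

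The members also varied together within groups. On deviations from the group means r was 0.963 for Zic1 with Zic4 and 0.854 for Zic2 with Zic5, and between 0.759 and 0.870 across chromosomes. On these deviations, without the 2 libraries farthest from the median for each pair, r was 0.935, 0.787 and 0.710 to 0.796 in the same order. On the log2 CPM themselves amphetamine control 3 and saline PFC_D2R-KO 4 were the farthest. Without them r was 0.924 for Zic1 with Zic4, 0.844 for Zic2 with Zic5 and 0.707 to 0.764 for the other pairs.

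The ratios of members within a library show where they parted. The FPKM ratio of Zic4 to Zic1 ran from 0.144 to 0.202 with a median of 0.185, and that of Zic5 to Zic2 from 0.134 to 0.219 with a median of 0.172. The ratio of Zic2 to Zic1 had a median of 0.531 and ran from 0.469 to 0.901. Its highest values were 0.901 in amphetamine PFC_D2R-KO 3 and 0.784 in amphetamine control 3, and the next was 0.607 in amphetamine PFC_D2R-KO 1. In amphetamine PFC_D2R-KO 3 Zic2 was thus high (38.77 CPM) while Zic1 was not (98.90 CPM).

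**Figure D3:**
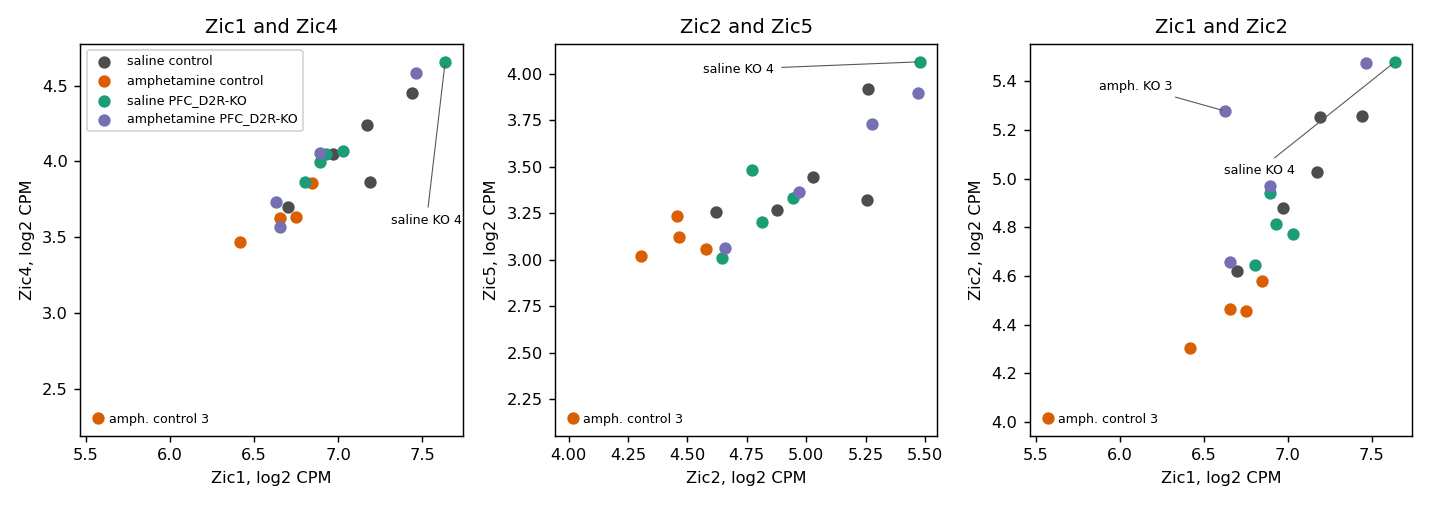
Log2 CPM (both axes) of Zic1 against Zic4, Zic2 against Zic5 and Zic1 against Zic2, 1 point per library and coloured by group. Amphetamine control 3 lies at the lower left and saline PFC_D2R-KO 4 at the upper right of each panel, and in the third panel amphetamine PFC_D2R-KO 3 has the highest Zic2 for its level of Zic1, an FPKM ratio of 0.901.

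Zic genes are known from the septum, and markers of septal neurons varied with them over these libraries. The list had 10 genes, of which 9 were named in the deposited tables and tested (all but Dbx1). Over libraries its mean log2 CPM had a Pearson r of 0.961 with Zic4, 0.942 with Zic1, 0.834 with Zic5 and 0.766 with Zic2 (rho 0.933, 0.921, 0.700 and 0.700). Permutation p-values were 1e-05, 1e-05, 7e-05 and 3e-05 for r, and at most 0.00113 for rho. They were adjusted over 48 relations, 4 members by 12 marker lists, to 0.00016, 0.00016, 0.00056 and 0.00036 for r and at most 0.00319 for rho. On deviations from group means r was 0.945, 0.928, 0.796 and 0.674, without the 2 libraries farthest from the median 0.875, 0.836, 0.539 and 0.618, and without the 5 distant libraries 0.909, 0.892, 0.783 and 0.884.

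The summed level of the septal list was 123.3 to 159.5 CPM in saline controls, 77.16 to 145.8 in amphetamine controls, 135.7 to 187.6 in saline PFC_D2R-KO and 118.4 to 164.1 in amphetamine PFC_D2R-KO mice. Its lowest library was amphetamine control 3 (77.16) and its highest saline PFC_D2R-KO 4 (187.6), the same libraries as for the members. For amphetamine against saline in controls 7 of its 9 genes were below 0, with a median log2 fold change of -0.56 against -0.0074 over all genes, and 0 passed edgeR's adjusted p. Crhr2, a receptor for urocortin peptides in the lateral septum, stood at -0.61 ± 0.165 (edgeR adjusted p = 0.183), the estrogen receptor gene Esr1 at -0.88 ± 0.264 (adjusted p = 0.209) and the channel gene Trpc4 at -0.56 ± 0.196 (adjusted p = 0.265). For PFC_D2R-KO against control under amphetamine 8 of 9 were above 0, with a median of 0.41 against 0.0049 over all genes, and again 0 were called. Such shifts were not particular to the septal list. Hypothalamic and preoptic markers had larger medians in the same contrasts, -1.99 and 1.53, with 0 of 10 called. In bulk tissue, fewer cells of a type and less RNA per cell cannot be told apart, and the part of septal or other neighbouring tissue in the Zic values was not tested. The septal list had its highest median levels for Six3 (44.97 CPM), Trpc4 (25.93) and Lhx8 (19.58). Whether the listed genes are particular to the septum was not tested.

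Septal markers were not the only list to move with the members. Of the 48 relations, 27 passed an adjusted permutation p of 0.05 for r, 19 did on deviations from group means, and 15 did without the 5 distant libraries. Markers of ependymal cells, the ciliated cells that line the ventricles, had an r of 0.889 with Zic5, 0.832 with Zic4, 0.808 with Zic1 and 0.800 with Zic2 (rho 0.809, 0.640, 0.593 and 0.742, adjusted permutation p at most 0.00076 for r and 0.0181 for rho). Without the 2 farthest libraries these r were 0.734, 0.537, 0.496 and 0.671. On deviations from group means r was 0.850, 0.717, 0.683 and 0.632 (adjusted permutation p at most 0.0117). There Zic5 and Zic4 also passed by rho, while Zic1 (0.451, adjusted permutation p = 0.126) and Zic2 (0.540, adjusted 0.0514) did not. The summed level of the ependymal markers (10 genes) was 39.04 to 55.46 CPM in saline controls, 15.26 to 37.05 in amphetamine controls, 30.83 to 62.84 in saline PFC_D2R-KO and 32.34 to 53.57 in amphetamine PFC_D2R-KO mice. By this sum amphetamine controls lay wholly below saline controls, where 1.68% of single genes did. All 10 genes had a log2 fold change below 0 there (median -0.71 against -0.0074 over all genes, 0 called by edgeR). These 10 genes were counted in the same libraries, so they are not independent of each other.

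Markers of striatal projection neurons ran the other way for Zic2 (r = -0.744, rho = -0.819, adjusted permutation p = 0.000693 and 0.0006) and Zic5 (r = -0.589, rho = -0.707, adjusted 0.0211 and 0.00282), while Zic1 and Zic4 passed by rho (-0.530 and -0.604, adjusted permutation p = 0.0339 and 0.0147) and not by r (-0.365 and -0.376). Without the 5 distant libraries r was -0.668 for Zic1, -0.702 for Zic4 and -0.763 for Zic2, which passed, and -0.613 for Zic5 (adjusted permutation p = 0.0582). Within groups the relation was weaker. On deviations from group means r was -0.132 for Zic1, -0.093 for Zic4 and -0.385 for Zic5 (adjusted permutation p = 0.612, 0.714 and 0.153). Zic2 passed there by r (-0.574, adjusted permutation p = 0.0243) and not by rho (-0.468, adjusted 0.109). A difference between members was not tested. Their summed level was 3650 to 5145 CPM in saline controls, 5422 to 6998 in amphetamine controls, 2944 to 5682 in saline PFC_D2R-KO and 1980 to 5309 in amphetamine PFC_D2R-KO mice. So the group with the lowest Zic2 had the highest median of these markers, 6416 CPM against 3915 to 4969 in the other groups. In saline PFC_D2R-KO 4 they stood at 2944 and in amphetamine PFC_D2R-KO 2 and 3 at 3042 and 1980. Amphetamine control 3, the lowest library for every member, held 5600, toward the low end of its group (5422 to 6998).

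The other lists gave the following r, with their adjusted permutation p-values in the same order as the members Zic1, Zic4, Zic2 and Zic5. Thalamic neuron markers had 0.789, 0.787, 0.767 and 0.662 (0.000693, 0.000693, 0.00076 and 0.00634), with rho of 0.719, 0.665, 0.693 and 0.505. Markers of the ventral striatum and the islands of Calleja had 0.714, 0.716, 0.481 and 0.527 (0.00165, 0.00122, 0.0626 and 0.0372), with rho of 0.765, 0.751, 0.495 and 0.546. Basal forebrain and pallidal markers passed by r with Zic1 (0.682, rho 0.779) and Zic4 (0.694, rho 0.802) and not with Zic2 (0.364, rho 0.468) or Zic5 (0.410), though Zic5 passed by rho (0.514, adjusted permutation p = 0.0409). Without the 2 farthest libraries the Zic5 values were 0.370 for the thalamic and 0.145 for the ventral list (permutation p = 0.145 and 0.579).

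Without the 5 distant libraries several of these calls by r ended. Thalamic markers had 0.550, 0.625, 0.639 and 0.374 with Zic1, Zic4, Zic2 and Zic5 (adjusted permutation p = 0.0846, 0.0511, 0.0458 and 0.252), so that Zic2 alone passed by r, while by rho Zic1 and Zic4 passed too (0.622 and 0.591, adjusted 0.0357 and 0.0454). Basal forebrain markers had 0.560 with Zic1 and 0.599 with Zic4 (adjusted permutation p = 0.0846 and 0.0597), with rho of 0.829 and 0.758 (adjusted 0.00344 and 0.00916). Ventral striatal markers had 0.708, 0.758, 0.723 and 0.601 (adjusted permutation p = 0.018, 0.0115, 0.018 and 0.0573), so that by r Zic2 came to pass and Zic5 no longer did.

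The list for striatal cholinergic neurons, the lineage with a known septal Zic4 source, includes Ngfr, which is also near Zic4 in the ranking below. Its markers had an r of 0.633 with Zic1, 0.627 with Zic4, 0.219 with Zic2 and 0.295 with Zic5 (rho 0.774, 0.784, 0.402 and 0.428). The first 2 passed at adjusted permutation p-values of 0.016 and 0.0211, and without the 2 farthest libraries their r were 0.462 (permutation p = 0.0641) and 0.438 (permutation p = 0.0782). Without the 5 distant libraries r was 0.523 and 0.548 (adjusted permutation p = 0.106 and 0.0848), with rho of 0.802 and 0.732 (adjusted 0.00612 and 0.0135). Hypothalamic and preoptic markers had 0.571, 0.621, 0.611 and 0.463 with Zic1, Zic4, Zic2 and Zic5 (rho 0.505, 0.572, 0.567 and 0.340), of which the first 3 passed and fell to 0.329, 0.427 and 0.449 without the 2 farthest libraries (permutation p = 0.197, 0.0872 and 0.0702), and without the 5 distant libraries none passed by r (0.480, 0.567 and 0.507, adjusted permutation p = 0.133, 0.0805 and 0.108). Cortical projection neuron markers had -0.627, -0.670, -0.439 and -0.401 (rho -0.816, -0.804, -0.482 and -0.474), of which the first 2 passed and stood at -0.642 and -0.727 without the 2 farthest libraries. Without the 5 distant libraries these 2 were -0.517 and -0.592 (adjusted permutation p = 0.106 and 0.062), with rho of -0.859 and -0.785 (adjusted 0.00204 and 0.00733).

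The lists left are those of choroid plexus, meninges and vessel walls. Choroid plexus markers had r between 0.468 and 0.554 and passed by r with Zic2 alone (0.554, adjusted permutation p = 0.0178). By rho they passed with Zic1 (0.544, adjusted permutation p = 0.03), Zic2 (0.593, 0.0181) and Zic5 (0.614, 0.014), and without the 5 distant libraries with no member (for Zic2 r = 0.254, adjusted 0.439). The library amphetamine PFC_D2R-KO 2 held 718.3 CPM of them where the other 18 held 34.35 to 90.41. Median levels over the 19 libraries were 33.2 CPM for Clic6, 15.36 for Prlr, 6.097 for Kl and 3.524 for Otx2. They were 1.927 CPM for Ttr and 0.4896 or less for Aqp1, Folr1, Kcne2 and Slc4a5. The usual sum thus rested mainly on Clic6 and Prlr, and whether choroid plexus was present in each library was not tested. Meningeal fibroblast markers had r of -0.023, -0.024, 0.312 and 0.054 with Zic1, Zic4, Zic2 and Zic5, and pericyte and mural cell markers -0.169, -0.190, 0.037 and -0.205. Over the 19 libraries none of these 8 relations passed (adjusted permutation p from 0.237 to 0.924). Without the 2 farthest libraries the meningeal r were 0.265, 0.301, 0.570 and 0.357 (unadjusted permutation p = 0.304, 0.239, 0.017 and 0.157). The pericyte r were then 0.321, 0.320, 0.411 and 0.216. On deviations from group means the meningeal r were -0.266, -0.286, 0.009 and -0.254. No tested gene of the 12 lists was at 0 in all libraries, which the filter on low counts fixes in advance.

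**Figure D4:**
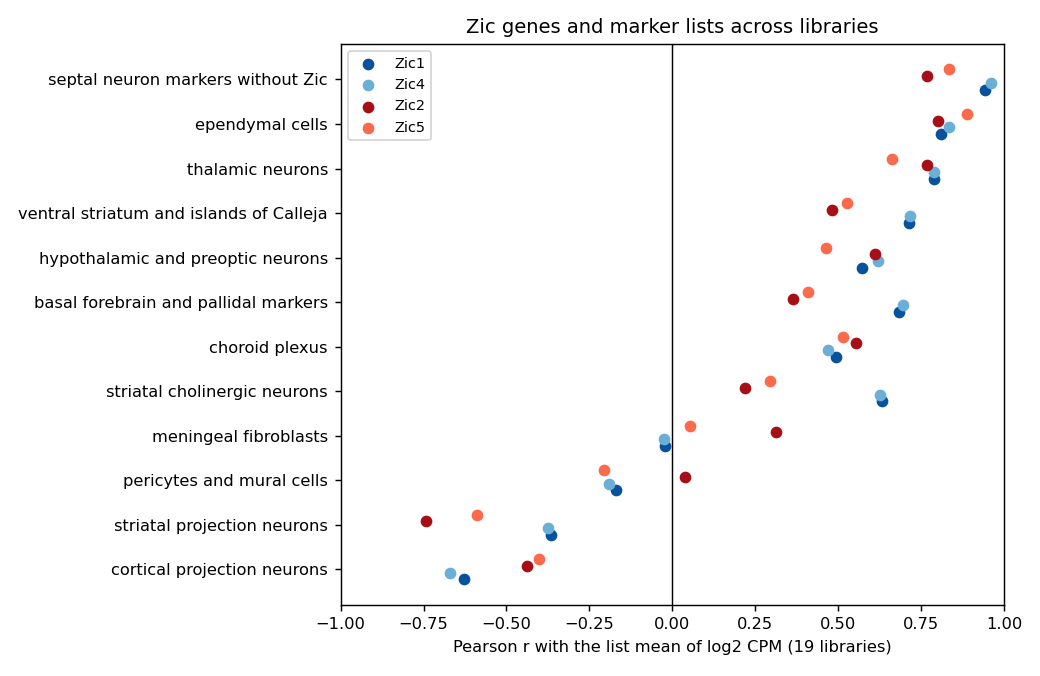
Pearson r (horizontal axis, from -1 to 1) of Zic1, Zic4, Zic2 and Zic5 with the mean log2 CPM of 12 marker lists (rows) over 19 libraries. The septal list is at the top with r from 0.766 to 0.961. The meningeal list runs from -0.024 to 0.312 and the pericyte list from -0.205 to 0.037. The cortical and striatal projection neuron lists are negative.

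Among 15224 tested genes with a mean of at least 1 CPM, the genes most like each member were ranked by Spearman rho over the 19 libraries. For Zic1 Zic4 stood at rank 2, while Zic2 and Zic5 stood at ranks 194 and 286. The 5 further genes nearest to Zic1 were Otx2 (0.921), a homeobox factor of the choroid plexus and anterior brain that is also in the choroid plexus list, Rtl1 (0.911), an imprinted gene, Cnga3 (0.907), a cyclic nucleotide-gated channel subunit, Cgn (0.907), which encodes the tight junction protein cingulin, and Cyp4f17 (0.905). For Zic4 the nearest gene of all was Zic1, followed by Rtl1 (0.895), the neurotrophin receptor gene Ngfr (0.893), Pld5 (0.888), Gm33680 (0.886) and Lbhd2 (0.884). Ngfr is also in the list for striatal cholinergic neurons.

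Zic2 had a different set, with Zic5 at rank 8 and Zic1 at rank 236. Its nearest genes were Gm4876 (0.921), the serotonin 1A receptor gene Htr1a (0.907), T2 (0.900), the LIM homeobox gene Lhx9 (0.881) and Tmem26 (0.881). For Zic5, Zic2 stood at rank 4, and its nearest genes beside the members were the septal marker Trpc4 (0.926), the dynein heavy chain genes of motile cilia Dnah9 (0.896) and Dnah12 (0.882), Crocc2 (0.874) and Spef2 (0.868), a gene of sperm flagella and cilia. Trpc4 ran from 11.24 to 40.23 CPM. These rhos are descriptions, with no p, of genes counted in the same libraries. Library totals differed, and the part of depth or dissection in these rhos was not tested.

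Genes within 100 kb of the members were counted in the same libraries. Next to the chromosome 14 pair, Clybl (14.44 to 20.85 CPM), which encodes a mitochondrial enzyme, and Pcca (30.27 to 36.32 CPM), a subunit of propionyl-CoA carboxylase, had log2 fold changes of -0.03 and -0.07 for amphetamine against saline in controls. The noncoding gene 2610035F20Rik, 236 bases from Zic2, stood at 0.136 to 0.757 CPM, with -0.57 ± 0.351 in the same comparison (edgeR adjusted p = 0.55). Gm5089, a further noncoding gene there, stood at 2.659 to 5.957 CPM, with 0.52 ± 0.153 for PFC_D2R-KO against control under amphetamine (edgeR adjusted p = 0.225). The 5 other genes near Zic1 and Zic4 were below 0.5 CPM in every library, and 0 of the 9 neighbours were called by edgeR in any contrast.

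The Gli relatives and hedgehog pathway genes, 16 in all and all tested, held 0 called by edgeR in any of the 5 contrasts. For amphetamine against saline in controls 12 of 16 were below 0 with a median of -0.14, against -0.0074 over all genes. The smallest p-value there was that of Smo, the signal transducer of the pathway, at -0.42 ± 0.0974 (edgeR adjusted p = 0.148). Its groups did not overlap, where 1.68% of all genes did not overlap in that direction. Next by p were the mediator Gli2 at -0.45 ± 0.169 (adjusted p = 0.295) and the mediator Gli3 at 0.29 ± 0.129 (adjusted p = 0.383). For PFC_D2R-KO against control under amphetamine 10 of 16 were above 0 with a median of 0.10, against 0.0049 over all genes. There Smo stood at 0.39 ± 0.103 (edgeR adjusted p = 0.22), Gli1, a target and effector of the pathway, at 0.73 ± 0.314 (adjusted p = 0.34) and Gli2 at 0.39 ± 0.178 (adjusted p = 0.365).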

How the data were processed

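RNA of the striatum was sequenced from 19 mice, whose groups came from the sample titles and treatment labels. The authors deposited whole-number counts per gene and mouse. The submitters' processing notes list GRCm39, STAR 2.6.0c, HTSeq 0.6.1p2, Trim Galore 0.5.0, FastQC 0.11.5, R 3.6.1 and DESeq2 1.26.0s, with no order. The annotation release and the use of strand were not given in these sources. The authors also deposited 3 comparison tables, which give log2 fold changes and p-values of the authors and an FPKM value for each library. The FPKM columns in the deposited tables had the same values in each table that held them, and were used only to compare levels between genes. The gene length behind them is not stated.

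The counts went into edgeR 4.0.16 under R 4.3.3 (filterByExpr, TMM scaling, robust quasi-likelihood fit of 4 group means over 19 libraries), with Benjamini-Hochberg adjustment over 21513 genes and calls at 0.05. The script was tested on simulated data. Standard errors were derived from the fold change and the root of F. DESeq2 1.42.0 and limma voom (limma 3.58.1) were alternatives, beside RLE size factors, library totals, no low count filter, a replicate block, fits of the 2 groups alone, leaving out each library, and leaving out 5 distant libraries. Correlations used log2 CPM with a prior count of 2 and 100000 two-sided permutations.

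Named were the 4 members, genes within 100 kb, at most 3 genes of each list by smallest p, and the 5 genes most like each member. The choroid plexus genes were named in addition, for their levels. The members and the 13 gene lists were chosen with earlier results of these data known. Promoter sequences and gene models came from RefSeq and GENCODE M21 tables of GRCm38, another build than the deposited coordinates, and no coordinates were converted. 1 item fixed for naming is not reported here. Each library held at least 57003408 counts, and Zic counts were never under 290.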

Additional observations from a re-analysis of the deposited data

Results flagged for a closer look

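In 4 of the 16 sets of values looked at (4 genes in 4 groups), 1 library lay farther from the rest of its group than Dixon's critical value allows, and chance alone gives about 1 such set in 20. The 4 genes were counted in the same mice and varied together, so the 16 sets are not independent and the count cannot be weighed against that rate. Zic1 in saline PFC_D2R-KO 4 stood at 199.1 CPM, where the other mice of the group ran from 111.5 to 130.8. In the same library Zic4 stood at 25.23 CPM against 14.57 to 16.79. Zic5 in saline control 1 stood at 15.09 CPM against 9.537 to 10.9 in the other saline controls. In amphetamine control 3, Zic5 stood at 4.433 CPM against 8.11 to 9.397.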

How the results depend on the processing

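The count of members called by edgeR was 0 in all 5 contrasts, and stayed 0 with limma voom, RLE size factors, library totals, no low count filter, fits of the contrast's groups alone where run, and without the 5 distant libraries or any single library. DESeq2 called 1 member, Zic2, for amphetamine against saline in controls and 1, again Zic2, for PFC_D2R-KO against control under amphetamine, and the cause of this difference between tools was not tested. With only the groups of the contrast in the edgeR fit, Zic2 in controls had -0.66 with an adjusted p of 0.0541. The titles number the mice, and same-numbered mice did not deviate together (correlations of deviations from -0.221 to 0.154), so the numbers do not pair them. With a replicate block 0 members were called in every contrast, and amphetamine against saline in controls gave -0.65, -0.66, -0.66 and -0.52 for Zic1, Zic2, Zic4 and Zic5. Over all genes, amphetamine against saline in controls had 1 call in the main edgeR test, 197 with DESeq2, 75 with its groups alone, 39 without the 5 libraries and 0 to 4 without single libraries. In PFC_D2R-KO mice the counts were 1, 99 with DESeq2, 3 with voom, 5 with the block, 0 with its groups alone, 2 without the 5 libraries and 0 to 3 without single libraries. PFC_D2R-KO against control under amphetamine had 0, 101 with DESeq2 and 1 without the 5 libraries, and the interaction 0 and 15 with DESeq2.

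Leaving out each library in turn, the log2 fold change for amphetamine against saline in controls ran from -0.70 to -0.45 for Zic1, -0.73 to -0.58 for Zic2, -0.73 to -0.44 for Zic4 and -0.58 to -0.36 for Zic5. In PFC_D2R-KO mice the ranges were -0.3627 to 0.0384 for Zic1, 0.0268 to 0.3322 for Zic2, -0.3553 to 0.04621 for Zic4 and -0.05635 to 0.2841 for Zic5. For PFC_D2R-KO against control under saline they were -0.2078 to 0.06645 for Zic1, -0.2377 to -0.0002013 for Zic2, -0.09706 to 0.1722 for Zic4 and -0.2019 to 0.1379 for Zic5. Under amphetamine that comparison ran from 0.22 to 0.54 for Zic1, 0.61 to 0.89 for Zic2, 0.34 to 0.71 for Zic4 and 0.44 to 0.73 for Zic5, and the interaction from 0.24 to 0.65, 0.68 to 0.99, 0.27 to 0.67 and 0.44 to 0.79. Signs also changed as follows, with the cause not tested. Without the 5 libraries amphetamine against saline in PFC_D2R-KO mice gave -0.1854 for Zic2 and -0.3145 for Zic5, and PFC_D2R-KO against control under saline gave 0.03754 for Zic1 and 0.0359 for Zic2. For Zic5 PFC_D2R-KO against control under saline gave -0.0011 with DESeq2, -0.007279 with voom, -0.0006948 with RLE size factors, -0.00316 with library totals, -0.01686 with the replicate block and -0.003334 with its groups alone. The 6 correlations between members passed in every setting, and the marker list relations that passed went from 27 to 15 without the 5 libraries, where 14 libraries remained (the septal and ependymal relations passed for each member). Under any scaling tried the median log2 fold change of all genes was 0.0458 or less in size.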
